A study of Mus musculus with 43 samples.

Results

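*Agps*, *Gnpat* and *Far1* encode enzymes of the first steps of ether lipid synthesis, and each was targeted by 5 sgRNAs in an in vivo CRISPR screen of metabolic genes in CD8+ T cells. They are 3 of the 2078 genes with values, and their sgRNAs are 15 of 10640, of which 250 are nontargeting. The 3 genes were chosen by pathway with their changes against the transferred cells already known, so those changes are given as a description, with no test. *Far2*, which encodes a second fatty acyl-CoA reductase, was not analysed here.

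The screen followed OT-I T cells, mouse CD8+ cells with a T cell receptor for ovalbumin, from OT-I:Rosa26-Cas9 mice made by crossing Rag2/OT-I mice with constitutive Rosa26-Cas9 knock-in mice. Cells transduced with the lentiviral library were selected by their CD90.1 reporter and injected into Rosa26-Cas9 mice carrying orthotopic KPC_OVA tumours, a pancreatic ductal adenocarcinoma line that expresses ovalbumin. Recipients received anti-PD-1 or control rat IgG from the day of transfer, and CD90.1+ OT-I cells were sorted 7 days later from the primary tumour, spleen, lung, liver, peritoneal metastases, draining lymph nodes and nondraining lymph nodes. An aliquot taken on the day of transfer (day 0, T0) is the reference, and Cas9 and the library were present in every group, T0 included. There were 3 libraries of T0 and of each organ and treatment, except 2 of liver IgG, 2 of peritoneal metastases IgG and 1 of liver anti-PD-1, giving 41 libraries in all. Peritoneal metastases anti-PD-1 replicate 2 has spleen as its tissue label and was used as its title says. Per the study's methods the mice were young adults of C57BL/6J background, not selected by sex, and sequencing was done in 3 independent runs. More mice were used per treatment than there are libraries, and the sources used here do not tie mice or runs to single libraries, which the labels call biological replicates.

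Ether lipids carry a fatty alcohol where other glycerolipids carry a fatty acid, and they include the plasmalogens, which are abundant in the membranes of immune cells. Their synthesis starts in peroxisomes, where the acyltransferase GNPAT (glyceronephosphate O-acyltransferase) acylates dihydroxyacetone phosphate and AGPS (alkylglycerone phosphate synthase) replaces that acyl chain with a fatty alcohol. FAR1 (fatty acyl-CoA reductase), a peroxisomal membrane protein, makes the alcohol, and later steps take place in the endoplasmic reticulum.

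Each value below is a difference on the log2 scale. The deposited signal of an sgRNA was taken as log2(signal + 1), the mean of the 250 nontargeting sgRNAs of the same library was subtracted, and the 5 sgRNAs of a gene were averaged. A change is this gene value minus its mean over the 3 T0 libraries, and a value above 0 means that cells with those sgRNAs took a larger share relative to nontargeting sgRNAs than at T0. The summed signal per library ran from 1788300 to 4228882. A lowest value shared between libraries of the same replicate number marks sgRNAs that were not seen. It misses some, such as the *Agps* sgRNA s_08716 at a signal of 0 in nondraining IgG replicate 3. In T0 at most 0.0188% of sgRNAs stood at a shared lowest value, and in the lymph nodes 45.4% to 91.6% did. For that reason averages were taken over the other 5 organs (26 libraries, 2.78% to 42.6% of sgRNAs at such a value), which are called the 5 organs here, and lymph nodes are described apart. Over the 5 organs *Rpl9*, a ribosomal protein gene, fell by 5.94 ± 0.58 (SE), *Polr1d*, an RNA polymerase subunit gene, fell by 5.25 ± 0.59, and *Pik3cd*, a PI3K catalytic subunit gene, rose by 2.98 ± 0.69 (limma, Benjamini-Hochberg adjusted p = 7.03e-13, 8.59e-11 and 0.000474).

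Averaged over the 5 organs, the change against T0 was 0.94 ± 0.66 (SE) for *Agps*, 0.55 ± 0.63 for *Gnpat* and 0.32 ± 0.66 for *Far1*. The median of all 2078 genes was -0.14. Ranked from the highest change, *Agps* was number 8, *Gnpat* number 67 and *Far1* number 220 of 2078. The direction depends on the centring, since without it the signal as deposited gave -0.06, -0.45 and -0.68 for the 3 genes while the median of all genes moved to -1.14, and centring on the nontargeting median gave 0.53, 0.14 and -0.09. With each sgRNA centred on nontargeting sgRNAs of similar T0 signal the values were 1.03, 0.56 and 0.29. That setting was chosen after seeing that nontargeting sgRNAs of low T0 signal fell further, in lung by 0.60 in the lowest of 4 bins of T0 signal against a rise of 0.70 in the highest. Without the liver anti-PD-1 library *Gnpat* was at 0.30, and without liver IgG replicate 2 *Far1* was at 0.21. Over the 26 libraries *Agps* was above every T0 library in 21, *Gnpat* in 17 and *Far1* in 16, and below every T0 library in 4, 4 and 6. The median over all genes was 9 of 26 above every T0 library.

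**Figure D1:**
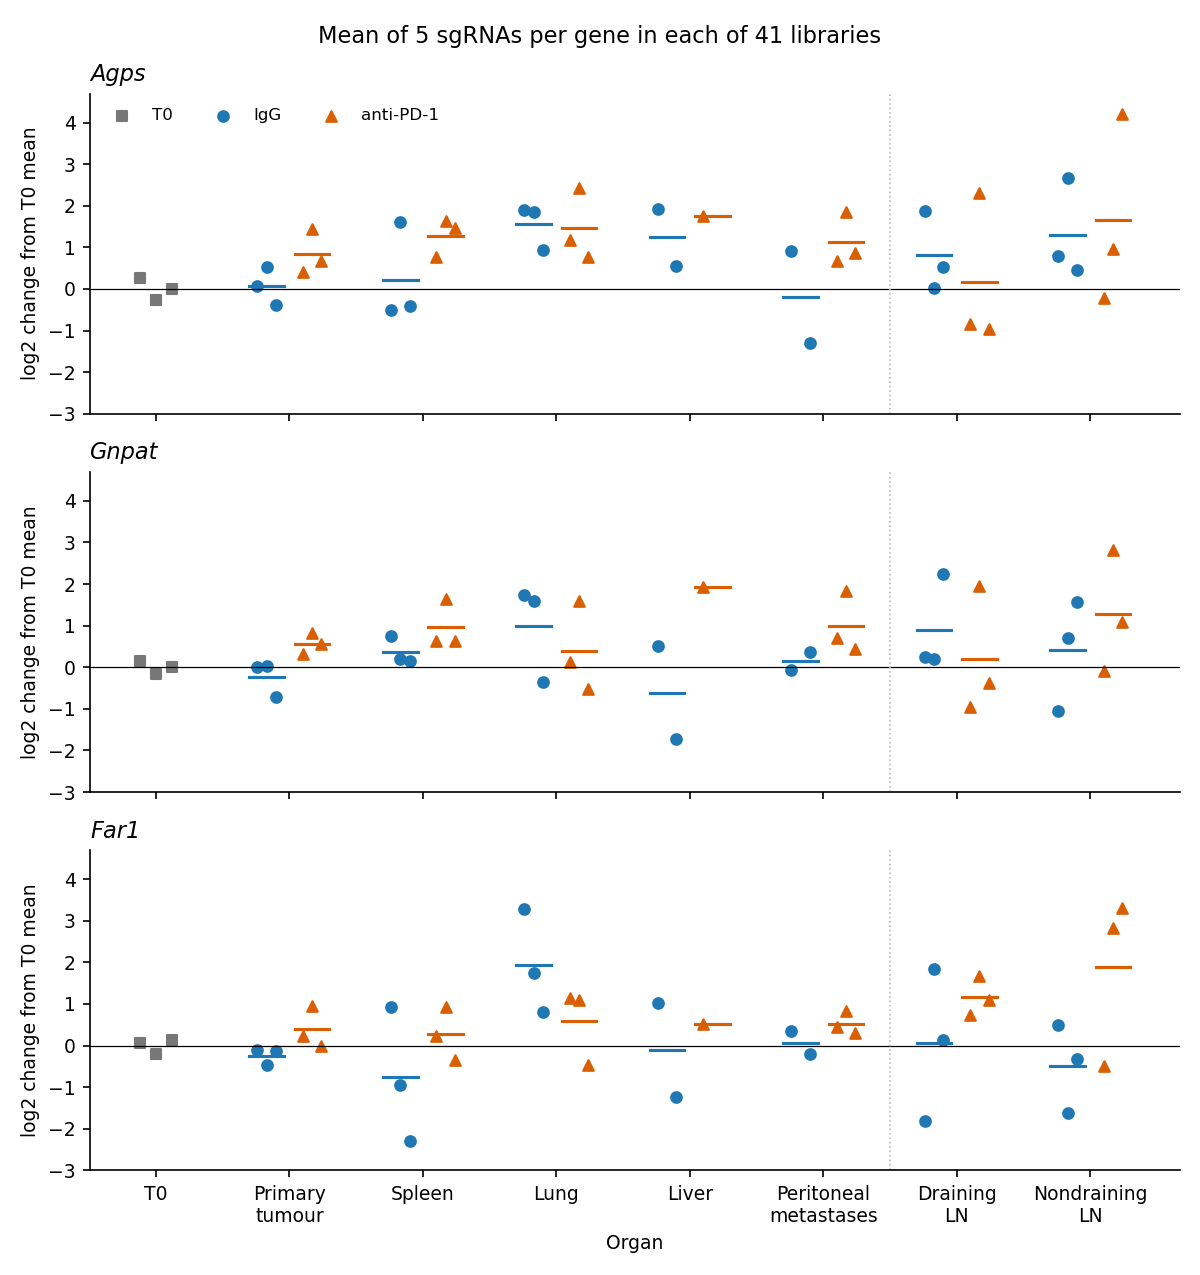
Change of *Agps*, *Gnpat* and *Far1* from the mean of T0 (log2, mean of 5 sgRNAs less the nontargeting mean) in each of 41 libraries; squares are T0, circles IgG and triangles anti-PD-1, replicates 1 to 3 run from left to right where present, and short lines are group means. *Agps* lies above T0 in all 6 lung and all 3 liver libraries, and the group mean of *Far1* is highest in lung IgG (1.95). Lymph node libraries are right of the dotted line, and the nondraining ones spread most widely of all organs.

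*Agps* was highest in lung and liver. In lung its change was 1.90, 1.85 and 0.94 in the IgG libraries and 1.17, 2.44 and 0.76 under anti-PD-1, against -0.25 to 0.26 in T0. All 6 lung libraries thus lay above all 3 of T0, as was the case for 2.50% of all genes. In liver it was 1.92 and 0.56 under IgG and 1.75 in the anti-PD-1 library, again above every T0 library, which held for 10.6% of genes there. Its organ means were 1.51 ± 0.76 (SE, n = 6) in lung and 1.49 ± 0.91 (n = 3) in liver, numbers 11 and 7 of 2078.

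In the other 3 organs the *Agps* values overlapped T0. The primary tumour gave 0.06, 0.53 and -0.38 under IgG and 0.42, 1.43 and 0.68 under anti-PD-1, with a mean of 0.46 ± 0.76. In spleen the IgG libraries were at -0.52, 1.61 and -0.42 and the anti-PD-1 libraries at 0.77, 1.63 and 1.46. Peritoneal metastases held the lowest *Agps* value of the 26, -1.30 in IgG replicate 3, beside 0.91 in the other IgG library and 0.68, 1.84 and 0.86 under anti-PD-1. Every anti-PD-1 library of these 3 organs was above every T0 library, as was so for 7.03% of all genes in primary tumour, 7.89% in spleen and 8.81% in peritoneal metastases, and the IgG libraries lay on either side. Over the 5 organs all 13 anti-PD-1 libraries of *Agps* and 8 of the 13 IgG libraries were above every T0 library, the former being so for 0.577% of all genes. Under IgG the median over all genes was 4 of 13. Replicate 2 of each treatment had the highest mean over its organs, 1.36 under IgG and 1.84 under anti-PD-1, against 0.48 and 0.76 for replicate 1 and -0.12 and 1.10 for replicate 3. These means do not all cover the same organs, from 3 for IgG replicate 1 to 5.

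Averaged over the 5 organs *Gnpat* changed less than *Agps*, though not in peritoneal metastases (0.57 against 0.47). All 6 spleen libraries were above the T0 mean, at 0.75, 0.20 and 0.15 under IgG and 0.62, 1.64 and 0.64 under anti-PD-1, and 5 of them were above every T0 library (T0 range -0.16 to 0.16). At least 5 of 6 spleen libraries were so for 8.33% of all genes. In primary tumour the IgG libraries were at 0.01, 0.03 and -0.71 and the anti-PD-1 libraries at 0.32, 0.83 and 0.56. Peritoneal metastases gave -0.06 and 0.37 under IgG and 0.69, 1.82 and 0.43 under anti-PD-1. In both of these organs every anti-PD-1 library was above every T0 library and every IgG library, whereas no primary tumour IgG library was above every T0 library. Among all genes, 7.03% and 8.81% had every anti-PD-1 library above every T0 library in primary tumour and peritoneal metastases, and 7.12% and 13.0% had every one above every IgG library.

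In lung and liver the *Gnpat* libraries lay far apart. Lung IgG libraries were at 1.73, 1.59 and -0.35 and lung anti-PD-1 libraries at 0.13, 1.59 and -0.52, so replicate 3 was lowest under both treatments. Liver IgG gave 0.51 and -1.74, the lowest value of the 26, and the liver anti-PD-1 library 1.92, the highest. The organ means were 0.17 ± 0.72 in primary tumour, 0.67 ± 0.72 in spleen, 0.70 ± 0.72 in lung, 0.66 ± 0.86 in liver and 0.57 ± 0.75 in peritoneal metastases. Neighbours in this order differed by less than 1 SE.

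Among the 5 organs *Far1* was highest in lung. The lung IgG libraries were at 3.28, 1.75 and 0.81, and their mean of 1.95 ± 0.88 was number 12 of 2078 in that group. Under anti-PD-1 the lung libraries were at 1.14, 1.10 and -0.46, which is 5 of 6 lung libraries above every T0 library (T0 range -0.20 to 0.14). At least 5 of 6 lung libraries were so for 10.4% of all genes. In primary tumour all 3 IgG libraries were below the T0 mean, at -0.11, -0.47 and -0.14, and those of anti-PD-1 were at 0.24, 0.96 and -0.01.

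Among the 5 organs the range of *Far1* in spleen was next to that in lung. Its IgG libraries were at 0.93, -0.94 and -2.29 and its anti-PD-1 libraries at 0.23, 0.92 and -0.34, and the organ mean was -0.25 ± 0.76. In liver *Far1* was at 1.01 and -1.23 under IgG and at 0.51 under anti-PD-1. Peritoneal metastases gave 0.34 and -0.19 under IgG and 0.45, 0.84 and 0.30 under anti-PD-1, and 4 of the 5 were above every T0 library. At least 4 of 5 were so for 9.38% of all genes. Among groups of more than 1 library outside the lymph nodes, *Far1* was above every T0 library throughout lung IgG and peritoneal metastases anti-PD-1 and in no other, as were 11.2% and 8.81% of all genes in these groups.

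The 15 sgRNAs were then followed one by one. The spacer sequences behind the identifiers were not analysed here. An sgRNA's value in an organ is the mean over its libraries, each with equal weight, whereas the gene values above and those with an sgRNA left out give both treatments equal weight, so the sgRNA values of a gene do not average to its change where the treatments have unequal numbers of libraries. Averaged over the 5 organs, 13 of the 15 sgRNAs were above 0, against 42.0% of all gene-targeting sgRNAs and 54.4% of the nontargeting ones. The exceptions were s_01588 of *Gnpat* at -0.31 and s_10354 of *Far1* at -0.49. Only 5 of their 390 values in the 5 organs stood at a shared lowest value (1.28%), and 15 values (3.85%) were under a signal of 10, compared with 14.5% of the values of all gene-targeting sgRNAs and 8.92% of the nontargeting ones.

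All 5 *Agps* sgRNAs were above 0, at 0.82, 0.59, 0.77, 0.70 and 1.85 for s_08716 to s_08720. The last had the largest change of the 15, with a T0 signal of 250 to 612 (median 286) and its highest signals in the 5 organs at 4478 in peritoneal metastases anti-PD-1 replicate 2, 3542 in lung anti-PD-1 replicate 2 and 3317 in liver IgG replicate 2. Leaving it out lowered the *Agps* change from 0.94 to 0.73, and leaving out any other sgRNA of the gene kept it between that value and 1.02. s_08716 was already abundant in T0, at the 98.3 percentile of T0 signal, and was above its T0 mean in 23 of 26 libraries, as s_08720 was.

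For *Gnpat*, s_01590 had the largest mean change at 0.95, followed by s_01589 at 0.74, s_01586 at 0.65 and s_01587 at 0.39. s_01588 was above 0 in spleen, lung and peritoneal metastases, at 0.40, 1.43 and 0.66, but was at -0.92 in primary tumour and -3.11 in liver, where its highest signal was 84.6 against a T0 median of 323. Without it the *Gnpat* change was 0.75, and without s_01590 it was 0.45.

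Some *Far1* sgRNAs differed widely between organs. In lung all 5 were above 0, from 0.42 for s_10353 to 2.36 for s_10351. In spleen s_10351 was at -1.14 and s_10354 at -1.07, the other 3 lying between -0.16 and 0.77. In liver s_10354 was at -2.51, with a highest signal of 34.9 against a T0 median of 165, and the other 4 ranged from 0.04 to 1.76. Leaving out single sgRNAs moved the *Far1* change over the 5 organs between 0.20 (without s_10351) and 0.50 (without s_10354).

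**Figure D2:**
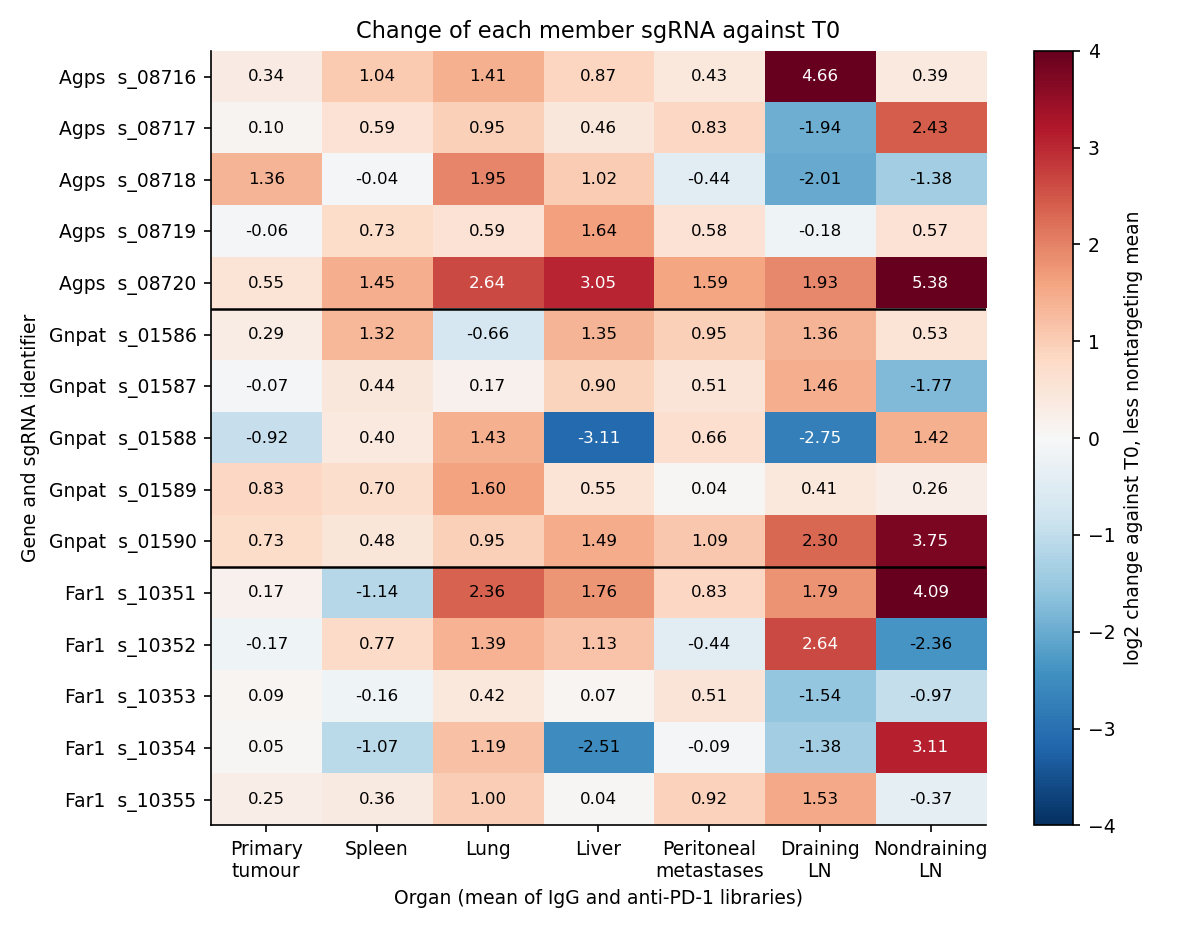
Change of each of the 15 sgRNAs against T0 (log2, less the nontargeting mean), averaged over the libraries of both treatments in each organ; rows are sgRNA identifiers grouped by gene, and the colour scale ends at -4 and 4. In lung 14 of the 15 sgRNAs are above 0, while s_01588 and s_10354 are at -3.11 and -2.51 in liver, and values of one gene diverge most in the nondraining lymph nodes.

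In the lymph nodes most sgRNAs, those of the 3 genes included, were not seen. Of their 180 values there, 111 (61.7%) were at a shared lowest value, against 71.8% of the values of all gene-targeting sgRNAs and 72.1% of the nontargeting ones. Under a signal of 10 were 126 (70%), against 78.2% and 77.9%. *Agps* averaged 0.49 ± 0.76 in draining and 1.48 ± 0.76 in nondraining lymph nodes, *Gnpat* 0.55 ± 0.72 and 0.84 ± 0.72, and *Far1* 0.61 ± 0.76 and 0.70 ± 0.76. The highest single *Agps* value of all 41 libraries was that of nondraining anti-PD-1 replicate 3, while s_08720 had its highest signal of all, 6702, in nondraining IgG replicate 2. s_08717 was at the lowest value in all 6 draining libraries, s_08718 in all 12 lymph node libraries, and s_01587 and s_10352 in all 6 nondraining ones. Averaging all 7 organs gave 0.95 for *Agps*, 0.59 for *Gnpat* and 0.42 for *Far1*.

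The comparison of anti-PD-1 with IgG was run for the 3 genes with limma across all 2078 genes. It leaves out T0 itself, but the genes were chosen with their changes against T0 under both treatments known. Its p-values are therefore not independent of that choice, and the same holds for the comparisons between organs below. Over the 5 organs anti-PD-1 minus IgG was 0.71 ± 0.45 (SE; 95% interval -0.19 to 1.61) for *Agps*, 0.83 ± 0.43 (-0.02 to 1.69) for *Gnpat* and 0.28 ± 0.45 (-0.62 to 1.18) for *Far1*. Single liver libraries weighed on these averages. *Gnpat* was at 0.41 without the liver anti-PD-1 library, and *Far1* at 0.054 without liver IgG replicate 3 and 0.50 without liver IgG replicate 2. None of the 3 passed the threshold (limma, Benjamini-Hochberg adjusted p = 0.862, 0.772 and 0.981; unadjusted p = 0.119, 0.0558 and 0.536), and 0.0962% of all genes did. The median difference of all genes was 0.04. Over all alternatives run, the lowest adjusted p was 0.255 for *Agps*, 0.132 for *Gnpat* and 0.478 for *Far1*.

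By organ, 12 of the 15 differences in the 5 organs were above 0, and the 3 below 0 were those of lung. Among all genes 53.6% were above 0 in primary tumour, 47.4% in spleen, 45.2% in lung, 62.8% in liver and 53.7% in peritoneal metastases. The median of all genes was -0.12 in lung and 0.30 in liver. *Agps* differed by 1.32 ± 0.99 in peritoneal metastases, 1.06 ± 0.88 in spleen, 0.77 ± 0.88 in primary tumour, 0.51 ± 1.32 in liver and -0.10 ± 0.88 in lung. The peritoneal value was 0.22 without IgG replicate 3 and 2.42 without IgG replicate 2. *Gnpat* differed most in liver, by 2.54 ± 1.26, where anti-PD-1 has 1 library and is assumed to vary like the other groups. It was 1.41 without liver IgG replicate 3 and 3.66 without liver IgG replicate 2. *Far1* ran from 1.04 ± 0.88 in spleen to -1.35 ± 0.88 in lung.

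No difference between treatments passed the threshold for these genes in any of the 7 organs (limma, lowest adjusted p = 0.0941), and 2 of 21 had an unadjusted p under 0.05, *Gnpat* in liver (0.0477) and *Far1* in nondraining lymph nodes (0.00911). The share of all genes past the threshold was 0% in primary tumour, spleen, liver and peritoneal metastases (5, 60, 18 and 32 genes at an unadjusted p under 0.05), 0.0481% in lung, 5.73% in draining and 6.02% in nondraining lymph nodes. The fit gave each gene a single variance for all organs, so the median SE was 0.858 in primary tumour and lymph nodes alike. Within a library the SD of nontargeting sgRNAs was 1.43 to 1.65 in primary tumour, 3.14 to 4.27 in draining and 2.04 to 4.35 in nondraining lymph nodes. Over the 5 organs 2 genes passed the threshold in this fit, 28 without the lymph node libraries and 11 with only the groups compared. The shares thus depend on which libraries set the variance, and they do not rank organs by treatment effect. *Gnpat* libraries did not overlap between treatments in primary tumour, liver and peritoneal metastases, and *Far1* libraries did not in primary tumour, anti-PD-1 being higher each time. Among all genes this was so for 7.12%, 46.2% and 13.0% in these organs. In nondraining lymph nodes *Far1* was at 0.49, -1.61 and -0.31 under IgG and -0.49, 2.83 and 3.31 under anti-PD-1, a difference of 2.37 ± 0.88. With single libraries left out the difference ran from 1.65 (limma, adjusted p = 0.405, without anti-PD-1 replicate 3) to 3.55 (0.0101, without anti-PD-1 replicate 1), and it also passed the threshold without IgG replicate 1 (0.0488). Under the other settings the adjusted p was 0.0928 to 0.559.

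Organs of the same treatment and replicate number deviated together (r of 0.04 to 0.27 over all genes in 41 pairs of libraries), and the limma test treats them as independent. Averaged first over the organs of a treatment and number, *Agps* was at 0.48, 1.36 and -0.12 under IgG and 0.76, 1.84 and 1.10 under anti-PD-1. *Gnpat* was at 0.83, 0.46 and -0.45 under IgG and 0.44, 1.47 and 0.61 under anti-PD-1. *Far1* was at 1.37, 0.34 and -0.61 and at 0.52, 0.95 and 0.00 in the same order. The treatments overlapped for each gene, and an exact two-sided permutation test of 3 against 3, which cannot give a p below 0.1, gave p = 0.3, 0.5 and 0.9. For replicates 1 to 3 the means covered 3, 5 and 5 organs under IgG and 4, 4 and 5 under anti-PD-1. IgG replicate 1 had no liver or peritoneal library, and anti-PD-1 replicates 1 and 2 had no liver library. The means and the test therefore mix unlike sets of organs.

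**Figure D3:**
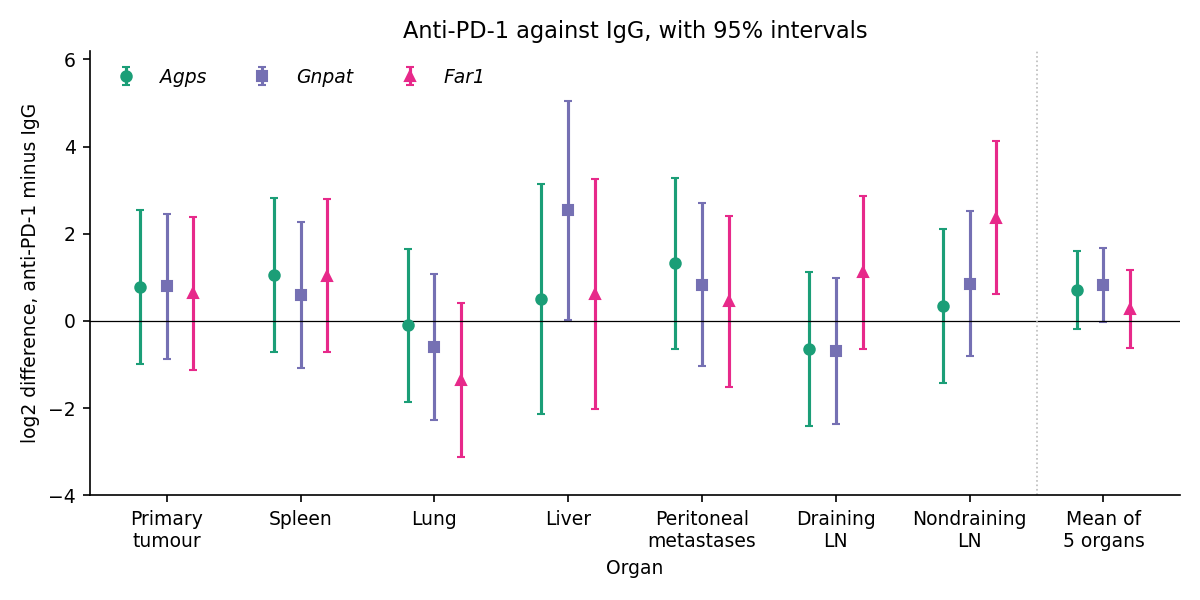
Anti-PD-1 minus IgG (log2) for *Agps*, *Gnpat* and *Far1* in each of 7 organs and averaged over the 5 organs other than lymph nodes; points are differences of group means and bars are 95% intervals from limma. In the 5 organs the points lie above 0 except in lung, and the intervals of *Gnpat* in liver and *Far1* in nondraining lymph nodes are the only ones that do not include 0.

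The treatment difference was also compared between pairs of the 5 organs. None of 30 such comparisons over the 3 genes passed the threshold (limma's moderated test, lowest adjusted p = 0.998), and 1 had an unadjusted p under 0.05.

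Against the primary tumour, with both treatments averaged, 11 of 12 differences were above 0. Of all genes 53.6% were above 0 in spleen, 51.1% in lung, 61.8% in liver and 44.0% in peritoneal metastases. *Agps* was higher by 1.05 ± 0.62 in lung and 1.03 ± 0.79 in liver, and differed by 0.30 ± 0.62 in spleen and 0.01 ± 0.66 in peritoneal metastases. *Gnpat* differed by 0.40 to 0.53 in the 4 organs, and *Far1* by 1.19 ± 0.62 in lung and -0.33 ± 0.62 in spleen. None of the 12 passed the threshold (limma, lowest adjusted p = 0.998; 0 at an unadjusted p under 0.05), and the share of all genes that did was 0% in each of the 4 organs (45, 73, 12 and 8 genes in spleen, lung, liver and peritoneal metastases at an unadjusted p under 0.05). No gene of the 3 had an organ whose libraries all lay above or all below those of the primary tumour. By the study's methods the deposited signal had been corrected with ComBat for batch effects between organs. Lowest values, however, were shared across organs within a replicate number and differed between numbers. For s_08717 they were 1.46, 0.339 and 0 in draining IgG replicates 1 to 3, and 1.46 in nondraining IgG replicate 1. Whether the correction ran by replicate number was not tested. What it removed is not known here, so the 0% does not show that organs were alike. The differences of the 3 genes from the primary tumour also depend on the centring. With the signal as deposited only *Agps* in liver (0.18) and *Gnpat* in spleen (0.025) and peritoneal metastases (0.047) were above 0, and the median of all genes in lung was -1.23.

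*Agps*, *Gnpat* and *Far1* varied together in part. Over the 26 libraries of the 5 organs the Pearson correlation of gene values was 0.62 between *Gnpat* and *Far1*, 0.55 between *Agps* and *Gnpat* and 0.52 between *Agps* and *Far1*, where the median over pairs of all genes was 0.02. These libraries share organs, treatments and nontargeting sgRNAs. Other genes were more alike. The closest to *Agps* were *Pigp* (0.71), *Stt3b* (0.70) and *Uroc1* (0.67), those to *Gnpat* were *Dpysl3* (0.72), *Galnt10* (0.70) and *Atp10a* (0.69), and those to *Far1* were *Gm5560* (0.87), *Hs2st1* (0.72) and *Ass1* (0.69).

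The neighbouring steps of the pathway were read against T0 from 6 lists holding 75 measured genes. None of the 75 rose past the threshold in any of the 5 organs, and 2 fell in each, *Pafah1b1* and *Tpi1* (limma, Benjamini-Hochberg adjusted). Among all genes 14.2% passed it in primary tumour, 14.0% in spleen, 15.1% in lung, 12.1% in liver and 14.3% in peritoneal metastases, with between 0 and 3 genes rising in an organ. The median change over the 75 genes was 0.07 in the 5 organs, beside -0.14 for all genes.

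Of the 14 genes of later ether lipid steps, which acylate the ether precursor a second time, remove its phosphate and attach the head group, none passed the threshold. The list ran from *Chpt1* (choline phosphotransferase) at -0.44 ± 0.63 to *Cept1* (choline/ethanolamine phosphotransferase) at 1.10 ± 0.65, with a median of 0.17. *Cept1* was above every T0 library in 23 of 26 libraries, where the median over all genes was 9. Its organ values were 0.51 to 1.83, and the lowest of their adjusted p was 0.105 (limma). The 17 remodelling genes had a median of 0.03, with *Lpcat3* (lysophospholipid acyltransferase) highest at 0.70 ± 0.68. *Pafah1b1* fell by 3.74 ± 0.61 and was below every T0 library in 26 of 26, as was so for 14.0% of all genes. It encodes LIS1, a regulator of dynein that also forms part of a platelet-activating factor acetylhydrolase. Without the 10% of sgRNAs of lowest mean signal it passed the threshold in 0 of the 5 organs, with changes of -2.66 to -0.30. With the same sgRNAs left out *Tpi1* missed it in spleen, at -3.08. That mean is over all 41 libraries, so a fall after transfer itself lowers it. The weaker values under this filter therefore do not show that the falls are fragile. In liver *Pafah1b1* also missed the threshold without T0 replicate 2, T0 replicate 3 or liver IgG replicate 3 (limma, adjusted p = 0.0726, 0.131 and 0.0993).

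Among the 5 genes that supply the glycerol backbone, *Tpi1* (triosephosphate isomerase, a glycolytic enzyme) fell by 4.52 ± 0.68, and the other 4 lay between -0.21 and 0.14, *Gpd1* being highest. The 4 glycerol-3-phosphate acyltransferase genes of the diacyl route, which makes the same kind of lipid with ester bonds only, lay between -0.27 (*Gpat2*) and 0.13 (*Agpat9*). The 12 genes of acyl-CoA and fatty alcohol supply ran from *Acaca* (acetyl-CoA carboxylase) at -1.61 ± 0.71 to *Acsl5* (acyl-CoA synthetase) at 0.83 ± 0.64. *Acaca* was below every T0 library in 25 of 26 libraries, and its lowest adjusted p in an organ was 0.0720 (limma). Among all genes 14.0% were below in all 26. The 23 genes of peroxisomal oxidation ran from *Eci2* at -0.59 ± 0.65 to *Cat* (catalase) at 0.33 ± 0.67, with a median of 0.12. Genes of peroxisome biogenesis were not analysed here.

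**Figure D4:**
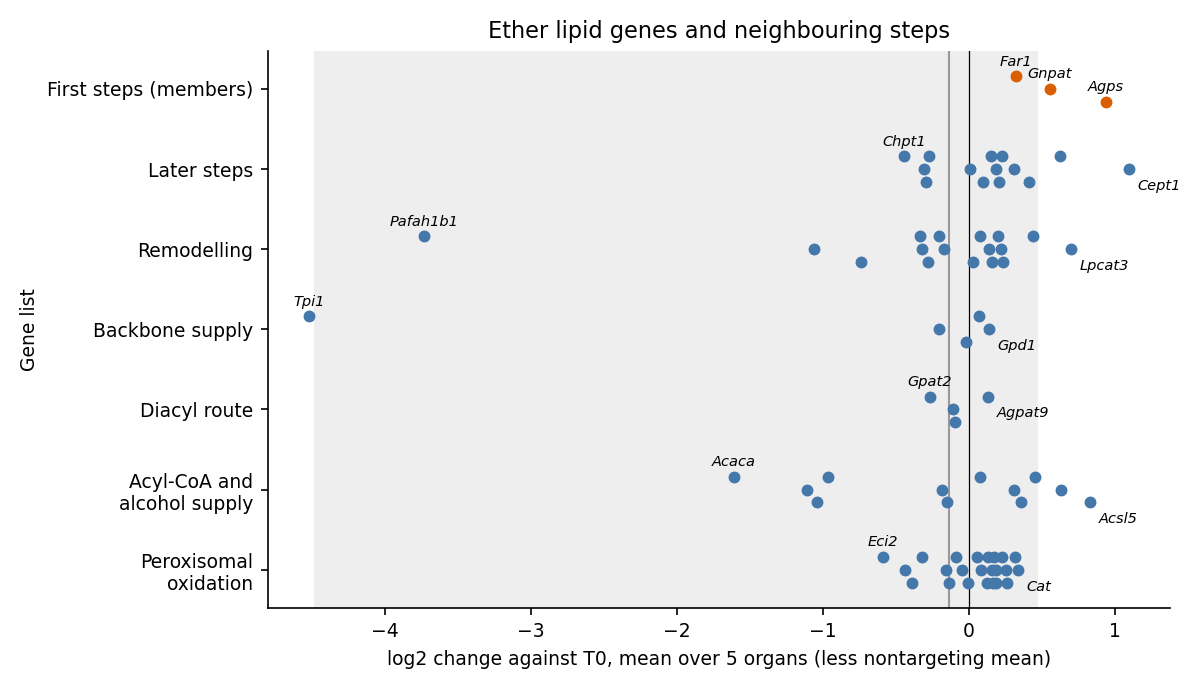
Change against T0 (log2, mean over the 5 organs, less the nontargeting mean) of the 3 genes and of 75 genes of neighbouring steps in 6 lists; each point is a gene, the grey band spans the 5th to 95th percentile of all 2078 genes and the grey line is their median. *Pafah1b1* and *Tpi1* are the only points that passed the threshold, both below 0, and *Cept1* at 1.10 lies beside *Agps* at 0.94.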

How the data were processed

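The integrated sgRNAs of sorted T cells were amplified from their DNA and sequenced. The authors counted reads with MAGeCK-VISPR and normalised them to the nontargeting sgRNAs. By their methods they then corrected batch effects between organs with ComBat. The deposited result is a non-integer signal per sgRNA, so no count test was run and depth in reads is unknown. The genome build is not given in the sources used here. Of 43 samples, 41 had values.

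From the deposited signal, log2(signal + 1) was taken, the mean of the 250 nontargeting sgRNAs of each library subtracted and the sgRNAs of a gene averaged. limma 3.58.1 in R 4.3.3 was fitted to 2078 genes with a mean for each organ and treatment and a single variance per gene. The p-values were adjusted by Benjamini-Hochberg over all genes with a threshold of 0.05. The code was tested on simulated data.

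The 3 genes, the pathway lists and the tests were chosen with earlier results of these data known. From each list the genes with the highest and the lowest mean change and those past the threshold in at least 2 organs were named, beside 3 reference genes and the 3 genes most correlated with each member. No block was used, and IgG and anti-PD-1 libraries of one replicate number were not correlated (r of -0.11 to 0.00 over 17 pairs). That check cannot show that the libraries were unpaired. A correction by replicate number, which was not tested, would have removed such a correlation. Alternatives changed the pseudocount, centring, summary over sgRNAs, filter, libraries and weights. The filter used the mean signal over all 41 libraries, which a fall after transfer itself lowers.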

Additional observations from a re-analysis of the deposited data

Results flagged for a closer look

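*Far1* differed between organs under IgG. All 3 lung IgG libraries were above the T0 mean (3.28, 1.75 and 0.81 on the log2 scale) and all 3 primary tumour IgG libraries were below it (-0.11, -0.47 and -0.14), a difference between the group means of 2.19. This difference was not tested.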

How the results depend on the processing

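Of 2932 values recomputed for 55 results, 2850 kept their direction and side of the threshold, stayed within 1.5 times a count or, for the untested changes against T0, moved by less than 1 SD between replicates (1.12 for *Agps*, 0.99 for *Gnpat* and 1.11 for *Far1*), 43 reversed, 27 moved, 10 were weaker and 2 stronger; the reversed ones were differences of the 3 genes of which none passed the threshold, and the cause was not tested. With the signal as deposited, the changes against T0 all turned below 0, at -0.06 for *Agps* and -0.68 for *Far1*, each within that SD, and -0.45 for *Gnpat*, beyond it; *Agps* anti-PD-1 minus IgG in lung was 0.45, and the differences from the primary tumour were -0.18, -0.19 and -0.34 for *Agps* in spleen, lung and peritoneal metastases, -0.71 and -0.37 for *Gnpat* in lung and liver, and -0.047, -0.73 and -0.13 for *Far1* in lung, liver and peritoneal metastases. Centred on the nontargeting median, *Agps* was 0.27 in lung (anti-PD-1 minus IgG), -0.0058 in spleen and -0.20 in peritoneal metastases (against tumour), *Gnpat* -0.37 in lung and *Far1* -0.0075 in liver; on the median of all sgRNAs these were 0.29 for *Agps* in lung, -0.11 for *Agps* in peritoneal metastases, -0.28 for *Gnpat* in lung and -0.015 for *Far1* in liver. With the median of sgRNAs, *Far1* anti-PD-1 minus IgG was -0.0070 over the 5 organs and -0.19 in spleen, and spleen minus tumour 0.36. Library weights gave *Agps* -0.28 for anti-PD-1 minus IgG in nondraining lymph nodes and -0.081 for peritoneal metastases minus tumour. The replicate block gave *Agps* -0.078 for the latter, and 0.84, 0.94 and 0.35 for anti-PD-1 minus IgG of *Agps*, *Gnpat* and *Far1* over the 5 organs (limma, adjusted p = 0.802, 0.699 and 0.974); it changed no call. Leaving out single libraries, anti-PD-1 minus IgG of *Agps* ran from -0.59 to 0.24 in lung, -0.18 to 1.19 in liver and -0.93 to 1.27 in nondraining lymph nodes, and that of *Far1* from -0.50 to 1.74 in liver and 1.65 to 3.55 in nondraining lymph nodes. Against the tumour *Agps* ran from -0.048 to 0.48 in spleen and -0.54 to 0.56 in peritoneal metastases, *Gnpat* from -0.78 to 1.05 in liver, and *Far1* from -0.75 to 0.056 in spleen and -0.44 to 0.68 in liver. The pathway genes past the threshold against T0, 2 in each of the 5 organs, numbered 1, 0, 1, 1 and 1 in primary tumour, spleen, lung, liver and peritoneal metastases without the lowest 10% of sgRNAs, 8, 6, 8, 13 and 7 with library weights, 6, 16 and 4 in primary tumour, liver and peritoneal metastases with only the groups compared, 27 in lung and 5 in liver as deposited, 6 in lung without lymph node libraries, 1 in liver with the median of sgRNAs, and 1 to 2 in liver with single libraries left out. All genes past the threshold for anti-PD-1 minus IgG over the 5 organs, 2, numbered 1 with log2(signal + 10), 1 with the median of sgRNAs, 62 with library weights, 28 without lymph node libraries, 11 with only the groups compared and 11 over all 7 organs. The number of libraries, 1 to 3 a group, and unseen sgRNAs in the lymph nodes limit what can be detected.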
